A study of Mus musculus with 4 samples.

Results

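*Kit* and *Kitl*, taken by their symbols, were 2 of the 32285 genes counted in single cells of mouse testes at postnatal day 15 (P15). Unique molecular identifiers (UMIs), 1 per captured transcript, were counted in 4 libraries from 2 wild-type and 2 *Meioc*-null pups, 1 testis per pup, and each of the 2 batches held a littermate pair with 1 pup of each genotype. All pups had the strain C57BL/6N, the null pups lacked *Meioc* through the allele *Meioc* tm1.1Dpc, and pups of both genotypes were also heterozygous for *Hspa2* tm1Dix and homozygous for a *ROSA26* tdTomato reporter whose stop was intact. MEIOC is a germ cell protein that acts on messenger RNA with YTHDC2 around the entry into meiosis. During dissociation the fluid above the settled tubules was thrown away to remove interstitial tissue, so the interstitial cells described here are the few that stayed. The replicates are separate pups, with 2 per genotype.

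KIT is a receptor tyrosine kinase, encoded at the white spotting locus of the mouse, and KITL (also called stem cell factor or Steel factor) is its ligand, which exists in a membrane-bound and a shed form. Ligand binding pairs the receptors, and the signal runs on through adaptors such as GRB2 and through phosphoinositide 3-kinase and AKT. In the testis the ligand is known as a product of Sertoli cells, and the receptor as a surface protein of differentiating spermatogonia, which need the pathway to survive and divide, and of Leydig cells. Stem and progenitor spermatogonia are known for low KIT, which makes the gene a common label of the step that retinoic acid triggers.

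*Kit* (ENSMUSG00000005672) spans chr5:75574916-75656722 on the plus strand of GRCm38 in GENCODE vM21, with 21 exons in the coding transcript that has most. *Kitl* (ENSMUSG00000019966) spans chr10:100015630-100100416, also on the plus strand, with 10 exons counted the same way. No other annotated gene overlaps either of them. The libraries tag the 3′ ends of transcripts, so the membrane-bound and shed forms of KITL, and the forms of KIT, were counted together. The sequences around both start sites are shown because the listed regulators of *Kit* include basic helix-loop-helix factors, a family that binds E-boxes. They come from RefSeq (GRCm38.p6, plus strand), run from 250 bases before the start that RefSeq lists (the first of 2 for *Kit*) to 50 after it, and lie at chr5:75574737-75575036 and chr10:100015571-100015870. These starts lie downstream of the GENCODE gene starts given above, and positions of motifs are counted from them. Capitals mark matches to the E-box CANNTG and to TATAAA.
Kit: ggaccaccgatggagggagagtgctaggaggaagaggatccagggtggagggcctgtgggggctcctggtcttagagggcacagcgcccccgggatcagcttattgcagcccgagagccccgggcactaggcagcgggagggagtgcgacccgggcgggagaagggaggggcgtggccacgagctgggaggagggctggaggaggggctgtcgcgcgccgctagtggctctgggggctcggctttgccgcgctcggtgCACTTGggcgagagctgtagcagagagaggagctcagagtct
Kitl: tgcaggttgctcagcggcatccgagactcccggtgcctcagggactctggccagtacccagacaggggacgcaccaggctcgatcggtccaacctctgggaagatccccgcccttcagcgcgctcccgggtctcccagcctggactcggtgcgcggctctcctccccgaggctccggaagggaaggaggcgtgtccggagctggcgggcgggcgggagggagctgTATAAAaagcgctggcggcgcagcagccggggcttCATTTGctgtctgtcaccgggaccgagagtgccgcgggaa
Each window held 1 E-box, and 72.3% of 32851 promoter windows of the same length hold one. The match began 8 bases after the listed start of *Kit* and 10 bases after that of *Kitl*. TATAAA was found in the *Kitl* window, 25 bases before the start, and in 13.6% of all windows. The GC box GGGCGG, searched on both strands like the others, matched 1 time in the *Kit* window and 3 times in the *Kitl* window, and 35.7% of windows hold at least 1 and 10.7% at least 3. None of these matches overlapped the E-boxes, and no binding was measured.

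The libraries, given throughout in the order wild type replicates 1 and 2 and then *Meioc*-null replicates 1 and 2, held 158291903, 190455307, 164925883 and 183606620 UMIs. After the filters, 5644, 7505, 6554 and 6522 cells remained, and any pair of libraries shared 7 to 16 cell barcodes, at most 0.283% of the smaller library. *Kit* had 12505, 17367, 17346 and 18224 UMIs over all barcodes and *Kitl* 8359, 8577, 10101 and 9923. Levels are given as CPM, the UMIs of a gene per 1e6 UMIs of all cells of a cluster in a library, without a correction for transcript length. Binomial intervals and limits from counts cover counting error only.

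Wild-type germ cells fell into 10 clusters, numbered along their order of similarity from the cluster highest in stem and progenitor markers, and *Meioc*-null cells were placed among them. Every null germ cell was given a wild-type cluster, so null cells without a wild-type counterpart were not set apart. The study, which clustered both genotypes together, described a cluster of null spermatocytes and designated some null cells as pachytene. A cluster may thus hold unlike cells in the 2 genotypes. Neither *Kit* nor *Kitl* took part in making or naming the clusters. Cluster 1, led by *Sdc4*, *Egr4* and *Ccnd2*, was undifferentiated spermatogonia-like. Clusters 2 to 6 were differentiating spermatogonia-like, with *Dnmt3b* and *Crabp1* among the leading genes of cluster 2, *Ccnd1* and *Dmrtb1* of cluster 3, the mitotic genes *Plk1* and *Ccnb1* of cluster 4, *Esx1* and *Mki67* of cluster 5, and *Rec8* and *Ctcfl* of cluster 6. Cluster 7 was led by *Stra8*, the retinoic acid target needed for meiotic entry, and by *Hist1h2aa* and *Gm4969*, and stayed unnamed because its marker scores for differentiating spermatogonia and early spermatocytes were too close. Clusters 8 (led by *Pbx3*, *Terb1* and *Fbxo47*) and 9 (led by *Zfy2*, *Rad51ap2* and *Meiob*) were early spermatocyte-like. Cluster 10 was pachytene spermatocyte-like, led by *Ldhc* and *Fabp9*, and held no *Meioc*-null cell. Of somatic cells, Sertoli-like, peritubular myoid-like, interstitial stroma-like and Leydig-like classes were named, and no cluster met the rule for endothelium, macrophages, pericytes or mast cells.

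*Kit* was low in undifferentiated spermatogonia-like cells, highest in the first differentiating cluster, and near background from the early spermatocyte-like clusters on. In cluster 1 its level was 40.1, 39.5, 52.3 and 41.6 CPM. In cluster 2 it was 261, 274, 278 and 270 CPM, between 5.31 and 6.95 times that of cluster 1 within a library. No library of cluster 1 came near any library of cluster 2. Cluster 1 pooled cells of unlike *Kit* level, however, as the finer order below shows.

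From cluster 2 to cluster 6 the level was lower at each cluster, although the libraries of neighbouring clusters overlapped from cluster 3 on. Wild-type means in clusters 3, 4, 5 and 6 were 184 ± 17.8, 160 ± 9.55, 135 ± 17.8 and 123 ± 10.9 CPM (SD, n = 2). In *Meioc*-null libraries the same clusters were at 195 ± 4.14, 178 ± 16.0, 155 ± 3.24 and 139 ± 10.5 CPM. Cluster 6 thus stood at 0.442, 0.477, 0.527 and 0.488 times the level of cluster 2, and no library of cluster 3 reached any library of cluster 2. The ranges of clusters 3 and 4, of clusters 4 and 5, and of clusters 5 and 6 overlapped between libraries, while within each of the 4 libraries the later cluster was the lower one at every step.

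In cluster 7 *Kit* was at 135, 164, 142 and 133 CPM, above cluster 6 of the same library in both wild-type pups (1.17 and 1.25 times) and level with it in both null pups (0.973 and 1.01 times). One cluster later, in cluster 8, it was at 7.88, 7.24, 15.3 and 8.53 CPM, which puts cluster 7 at 17.1, 22.7, 9.30 and 15.6 times cluster 8. Clusters 9 and 10 were lower again, at 3.99, 2.92, 4.44 and 3.85 CPM and at 2.69 and 1.57 CPM (wild type only). Sertoli-like cells, which should lack the receptor, were at 4.94, 5.91, 5.86 and 7.72 CPM, and clusters 9 and 10 were below this in every library. Cluster 8 was above it. In the second replicates the shallow part of the Sertoli-like cells was higher than cluster 8, at 8.91 and 13.6 CPM on only 5 and 10 *Kit* UMIs. Stroma-like cells of the second null replicate were also higher, at 14.3 CPM. In the first replicates cluster 8 was above the shallow Sertoli-like cells (5.75 and 10.6 CPM), stroma-like cells (6.73 and 4.16 CPM) and myoid-like cells (4.16 and 5.48 CPM). The level of cluster 8 thus did not stand clear of background in every library. The plot of *Kit* levels by cluster shows the steep edges on either side of clusters 2 to 7.

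**Figure D1:**
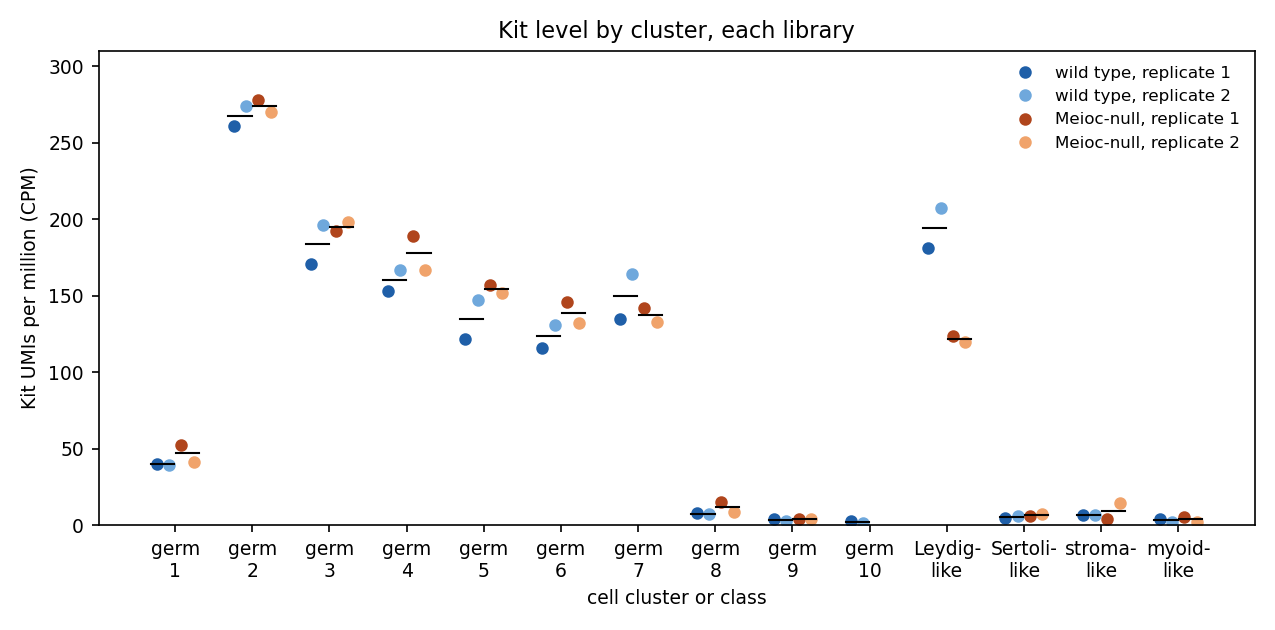
*Kit* level in CPM in each germ cell cluster, in order, and in each somatic class. Each point is 1 library and each bar the mean of 2 libraries of a genotype. Clusters 2 to 7 lie between 116 and 278 CPM, clusters 8 to 10 under 16 CPM, and Leydig-like cells between 120 and 207 CPM, with the wild-type points above the null points; cluster 10 has no null cells.

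Between 93.0 and 94.8% of the germ cell *Kit* UMIs lay in clusters 2 to 7, which held 65.6, 55.4, 74.3 and 71.9% of the germ cells. Over all germ cells together *Kit* was at 110 ± 10.1 CPM for the wild-type and 140 ± 1.82 CPM for the null libraries (SD, n = 2). Cluster 7 took 17.5 and 12.4% of the wild-type germ cells and 32.5 and 24.3% of the null ones. The part of these shares in the value over all germ cells was not tested.

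The share of cells with a *Kit* UMI had the same steep edges at a fixed depth. After each cell was thinned to 2000 UMIs, 4.94, 4.55, 5.61 and 4.96% of cluster 1 cells had a *Kit* UMI, against 37.2, 46.2, 39.7 and 36.2% of cluster 2 cells. In cluster 7 the share was 21.6, 29.5, 23.2 and 19.9%, and in cluster 8 it was 2.61, 1.33, 3.04 and 1.16%. Between clusters 2 and 6 the later cluster was not always the lower one. Cluster 4 was above cluster 3 in the first wild-type replicate (27.6 and 26.2%). Cluster 5 was above cluster 4 in the second wild-type (25.8 and 25.1%) and second null replicates (27.4 and 25.8%). Thinned Sertoli-like cells had 0.813, 1.16, 1.40 and 1.51%, so cluster 1 stood above the background, while the share in cluster 8 was below it in the second null replicate. Without thinning the shares in cluster 2 were 98.2, 98.5, 98.8 and 96.9% at median depths of 28105 to 33803 UMIs per cell, and those in Sertoli-like cells 5.88, 4.81, 4.96 and 6.75% at 2892 to 3609 UMIs.

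Within cluster 1, *Kit* was also read in the cells that carried *Gfra1*, the co-receptor for GDNF that marks stem and progenitor spermatogonia. Thinned to 10000 UMIs, 14.6, 18.2, 20.3 and 13.9% of cells with a *Gfra1* UMI had a *Kit* UMI, against 18.6, 16.8, 27.4 and 19.7% of cells without one. The share was lower with *Gfra1* in 3 of 4 libraries, and the exact binomial intervals of each pair overlapped. *Gfra1* itself was at 52.2, 50.1, 65.6 and 46.0 CPM in cluster 1 and at most 1.16 CPM in cluster 2.

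A finer order resolved 2 maxima of *Kit*. Germ cells were ranked by diffusion pseudotime, a measure of similarity rather than of time, and split into 20 bins of equal numbers of wild-type cells. *Kit* was at 15.9, 12.9, 17.9 and 15.7 CPM in bin 1, at 114, 121, 140 and 122 CPM in bin 2, and at its highest in bin 3 with 282, 293, 293 and 293 CPM. The onset thus spanned bins 1 to 3 in all 4 libraries. Bins 1 and 2 were both mostly cluster 1 cells and bin 3 mostly cluster 2 cells, so the rise began within cluster 1.

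The level was lowest between the maxima in bin 10, mostly cluster 6 cells, at 100, 105, 107 and 116 CPM. It was higher again in bin 12, mostly cluster 7 cells, at 195, 222, 202 and 196 CPM, which is 1.95, 2.11, 1.89 and 1.69 times bin 10. Bins 13, 14 and 15 then led from 143, 179, 131 and 96.8 CPM through 39.0, 45.6, 36.4 and 17.7 CPM to 6.34, 6.01, 8.05 and 4.17 CPM. In bins 13 and 14 the second null replicate was lowest and both wild-type libraries were above both null libraries.

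*Stra8* also had 2 maxima, the first in the same bin as *Kit* and the second 1 bin later. It was at 897, 785, 1022 and 989 CPM in bin 3 and near its lowest between the maxima in bin 7, with 49.3, 41.0, 79.4 and 48.9 CPM. In bin 12 it stood at 1673, 1760, 2573 and 2394 CPM and in bin 13 at 2662, 2662, 2730 and 2604 CPM. The genes parted after the second maximum: in bin 15 *Stra8* was still at 437, 422, 1464 and 1619 CPM, and in bin 17 at 25.7 and 36.4 CPM in wild type but 662 and 603 CPM in *Meioc*-null, whereas *Kit* in bin 17 was between 4.49 and 5.28 CPM in all 4 libraries.

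**Figure D2:**
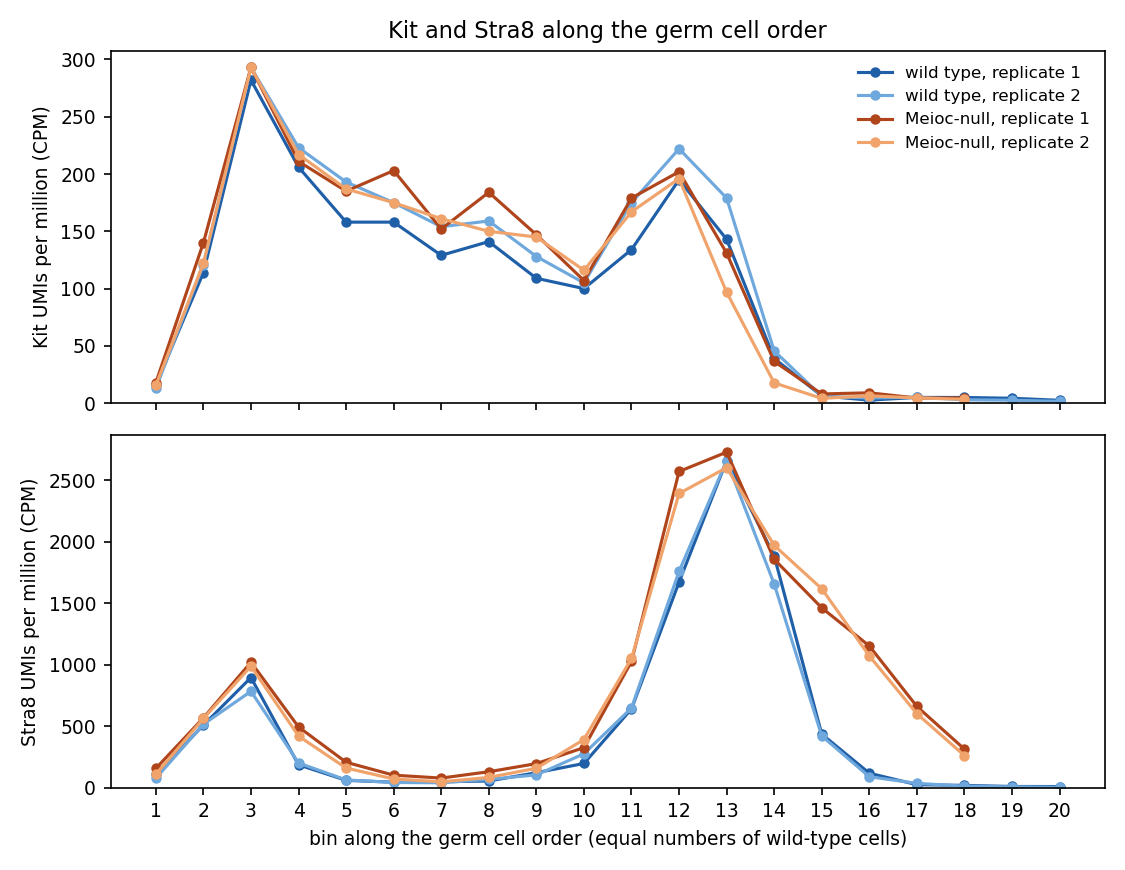
*Kit* (top) and *Stra8* (bottom) in CPM over 20 bins along the order of germ cells, with equal numbers of wild-type cells per bin and 1 line for each library. Both genes show a maximum at bin 3 and again at bin 12 or 13, *Kit* is under 10 CPM from bin 15 on in all 4 libraries, and *Stra8* of the null libraries stays above that of wild type from bin 15 to bin 18; bins 19 and 20 hold no null cells.

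The genotype comparison asked whether the loss of MEIOC alters *Kit* as germ cells leave mitosis. UMIs were summed per library and cluster and tested with edgeR's quasi-likelihood test over all genes that passed its filter on low counts, with the log2 fold change as wild type over *Meioc*-null, and a gene was called at a Benjamini-Hochberg adjusted p under 0.05 and a change over 0.1 in size. Of 9 germ cell clusters and 3 somatic classes with 50 cells in every library, *Kit* could be tested in all 12 and *Kitl* in 10, all but germ clusters 4 and 9. Neither was called in any of them.

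In spermatogonial clusters the *Kit* estimates lay close to 0. The log2 fold changes were -0.22 ± 0.12, -0.004 ± 0.13, -0.05 ± 0.14, -0.11 ± 0.13, -0.15 ± 0.14 and -0.13 ± 0.12 (SE) in clusters 1 to 6, with edgeR adjusted p-values from 0.812 to 1.00. An interval of 2 SE ran from -0.46 to 0.02 in cluster 1 and from -0.27 to 0.26 in cluster 2. Few genes were called there without a block for the pair: of those tested, 0.00687, 0.103, 0.0768 and 1.07% were called in clusters 2, 3, 4 and 6. In clusters 1 and 5 edgeR called 0 genes (0%). There 253 of 14720 and 598 of 12249 genes had an edgeR p below 0.05 before adjustment, while 4 and 7 (0.0272 and 0.0571%) were called by DESeq2. With the replicate number as a block the shares called in clusters 1 to 6 were 0.455, 0.213, 1.42, 1.06, 4.17 and 6.34%, and *Kit* was not among them.

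Around meiotic entry many genes were called, but *Kit* was not. Cluster 7, in which 15.4% of genes were called, gave a log2 fold change of 0.17 ± 0.12 (SE, edgeR adjusted p = 0.407). Cluster 8, with 34.9% of genes called, gave -0.60 ± 0.29 (adjusted p = 0.111), and its values of 7.88 and 7.24 CPM in wild type lay below the 15.3 and 8.53 CPM of *Meioc*-null. Without the second null replicate the estimate in cluster 8 was -0.88 and was called (adjusted p = 0.0304), and without the first null replicate it was -0.23 (adjusted p = 0.689). In cluster 9, with 59.7% called, *Kit* gave -0.20 ± 0.38 (adjusted p = 0.671) on 13 to 39 UMIs per library. With the top-scoring doublets kept the direction turned and the gene was called (1.12, adjusted p = 0.00215).

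Other genes moved with the null values in cluster 8. *Stra8* was at 371 and 296 CPM in the wild-type cells of that cluster, against 1426 and 1553 CPM in the null cells, and the 6 markers of differentiating spermatogonia summed to 340 and 287 CPM against 520 and 521 CPM. The part of cell stage in the *Kit* values of cluster 8 was not tested. *Meioc* itself was at 605, 557, 824 and 798 CPM in cluster 8 (log2 fold change -0.45 ± 0.15, edgeR adjusted p = 0.0268), at 630, 681, 674 and 648 CPM in cluster 7, and at no more than 21.6 CPM in clusters 1 and 2. Its 3′ tags may lie outside the deleted part, so they do not check the genotypes.

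The steps between consecutive clusters differed by genotype at 2 of 8 places. Each step was tested as an interaction of genotype and cluster with the library as a block. From cluster 6 to cluster 7, *Kit* on a log2(CPM + 10) scale went up by 0.21 and 0.31 in the wild-type libraries, and the null libraries gave -0.04 and 0.01. The interaction was 0.29 ± 0.08 (SE, edgeR adjusted p = 0.00403), and 21.6% of all genes tested were called for this step, so the call itself is no mark of *Kit*. Along the finer order the null libraries were higher in bin 12 than in bin 10 as well, as given above, and *Stra8* in cluster 6 was at 381, 389, 694 and 569 CPM, so the null cells of cluster 6 already stood apart in that gene. Its part in the step was not tested. It was not called without the second wild-type replicate (0.24, adjusted p = 0.104).

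From cluster 7 to cluster 8 the same scale gave steps of -3.02 and -3.34 in wild type and of -2.59 and -2.95 in *Meioc*-null. The interaction was -0.82 ± 0.24 (SE, edgeR adjusted p = 0.0150), beside 25.4% of genes called for the step. The finer order did not set the genotypes apart in this way, since between bins 12 and 15 the second null replicate went furthest down, from 196 to 4.17 CPM. The call rested on the few UMIs of cluster 8. It was lost without the first null replicate (-0.45, adjusted p = 0.277), without the second wild-type replicate (-0.51, adjusted p = 0.243), with doublets kept (-0.48, adjusted p = 0.216) and with a mitochondrial limit of 25% (-0.73, adjusted p = 0.168).

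The other 6 steps were not called for *Kit*. The interactions were 0.21, -0.04, -0.06, -0.03 and 0.01 for the steps up to cluster 6, with 0.136, 0.191, 0.126, 0.0653 and 0.318% of genes called in that order, and 0.36 ± 0.42 from cluster 8 to cluster 9, with 39.4% called. An exact two-sided permutation test of the 4 step values cannot reach the threshold with 2 libraries per genotype, so it does not bear on these calls. The plot of genotype differences shows all estimates, with the widest intervals in clusters 8 and 9.

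**Figure D3:**
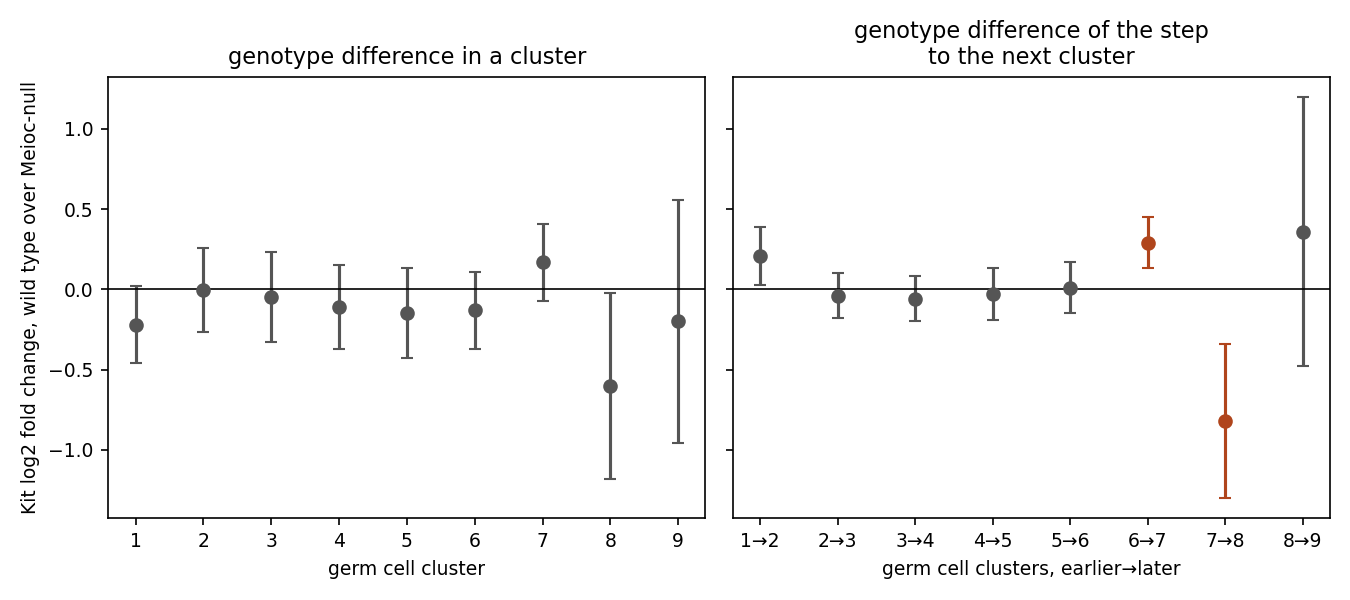
*Kit* log2 fold change, wild type over *Meioc*-null, in germ cell clusters 1 to 9 (left), and genotype difference of the step between consecutive clusters (right). Points are edgeR estimates and bars 2 SE to each side; the steps in red, 6 to 7 at 0.29 and 7 to 8 at -0.82, were called at an adjusted p under 0.05, and no single cluster was.

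Outside the germ line, Leydig-like cells carried *Kit*, and they also carried *Kitl*. *Kit* was at 181, 207, 124 and 120 CPM in 35, 51, 21 and 72 cells, on 114, 207, 48 and 203 UMIs, and 88.6, 86.3, 81.0 and 87.5% of the cells had a *Kit* UMI. That is 0.693, 0.755, 0.447 and 0.445 times the level of cluster 2, and 36.6, 35.1, 21.2 and 15.5 times that of Sertoli-like cells. At 2000 UMIs per cell, 28.6, 35.3, 14.3 and 27.8% had a *Kit* UMI. Because they were few, they held no more than 1.53% of the *Kit* UMIs of the kept cells in any library.

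The Leydig-like cells were named by the fixed Leydig markers, so those markers describe the cells and do not check the name. All 6 Leydig markers were present, summing to 4693, 5193, 7020 and 6498 CPM, and *Insl3*, *Cyp11a1* and *Hsd3b1* led the cluster. All 6 mast cell markers, checked because mast cells are known for KIT, were at 0 in these cells in all 4 libraries. The 6 markers of differentiating spermatogonia summed to 42.9, 13.0, 10.3 and 14.2 CPM there, against 535 to 598 CPM in cluster 2. The other interstitial class, stroma-like cells, had little *Kit*, at 6.73, 6.75, 4.16 and 14.3 CPM. So had myoid-like cells, which lie around the tubule, at 4.16, 2.19, 5.48 and 2.17 CPM.

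Both wild-type values of *Kit* in Leydig-like cells were above both null values. The wild-type mean was 194 ± 18.4 CPM and the null mean 122 ± 3.02 CPM (SD, n = 2). With a minimum of 20 cells per library, chosen after the cell numbers were seen, the log2 fold change was 0.68 ± 0.22 (SE, edgeR adjusted p = 0.216), which was not called, and 0.961% of the 7700 genes tested were. The interval of 2 SE ran from 0.25 to 1.11, and under the other settings the adjusted p ranged from 0.0621 to 1.00. These were remnants of a discarded tissue, and which Leydig cells stayed with the tubules was not measured.

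Transcripts of the ligand were highest in somatic cells. *Kitl* was at 193, 228, 222 and 206 CPM in Sertoli-like cells, the nurse cells of the tubule, and the groups overlapped. It was at 160, 174, 204 and 158 CPM in stroma-like cells, which carried *Dcn* and *Clec3b*, and at 143, 158, 191 and 99.8 CPM in Leydig-like cells. Myoid-like cells, the contractile cells around the tubule, were at 24.1, 24.7, 33.3 and 19.8 CPM. All germ cells together were at 1.88, 1.23, 2.81 and 1.41 CPM.

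By these sums the order from the highest was Sertoli-like, stroma-like, Leydig-like, myoid-like and germ cells in each of the 4 libraries. A mean over cells of UMIs per 10000, which gives shallow cells the same weight as deep ones, did not keep this order. In the first null replicate it was 1.69 for Sertoli-like, 2.01 for stroma-like and 2.06 for Leydig-like cells, and in the first wild-type replicate stroma-like cells were also above Sertoli-like cells. An unnamed somatic cluster of 130, 11, 42 and 24 cells, led by the dividing cell genes *Mki67* and *Top2a*, lay between Leydig-like and myoid-like cells at 54.7, 98.4, 92.4 and 41.7 CPM. Sertoli-like cells were at 1.09 to 1.31 times stroma-like and at 1.16 to 2.06 times Leydig-like cells of the same library. The ranges over libraries of Sertoli-like and stroma-like cells overlapped, as did those of stroma-like and Leydig-like cells, and their order depended on that weighting. Myoid-like cells lay apart from all of them, at 11.9 to 20.1 times germ cells, and Sertoli-like cells were at 79.2 to 185 times germ cells.

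Sertoli-like cells came as 2 clusters that differed in depth more than in the ligand. The cells of the shallow cluster, with library medians of 2221 to 2542 UMIs, were at 113, 151, 139 and 163 CPM of *Kitl*. Those of the deep cluster, with medians of 22793 to 37426 UMIs, were at 201, 237, 244 and 215 CPM, and 97.6, 96.2, 90.4 and 81.7% of them had a *Kitl* UMI. At 2000 UMIs per cell, 29.3, 35.9, 24.2 and 30.2% of all Sertoli-like cells had a *Kitl* UMI, with 77, 32, 78 and 61 shallower cells left out. Germ cells at the same depth gave 0.354, 0.250, 0.773 and 0.265%, and whether these UMIs came from free RNA was not tested.

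No germ cell cluster stood out in *Kitl*. The values by cluster ran from 0.427 to 3.31 CPM, and the first null replicate was the highest library in 9 of the 9 clusters that it entered, as it was in germ cells as a whole. Both extremes came from null libraries, the highest in cluster 1 and the lowest in cluster 9, where 2 UMIs were counted.

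**Figure D4:**
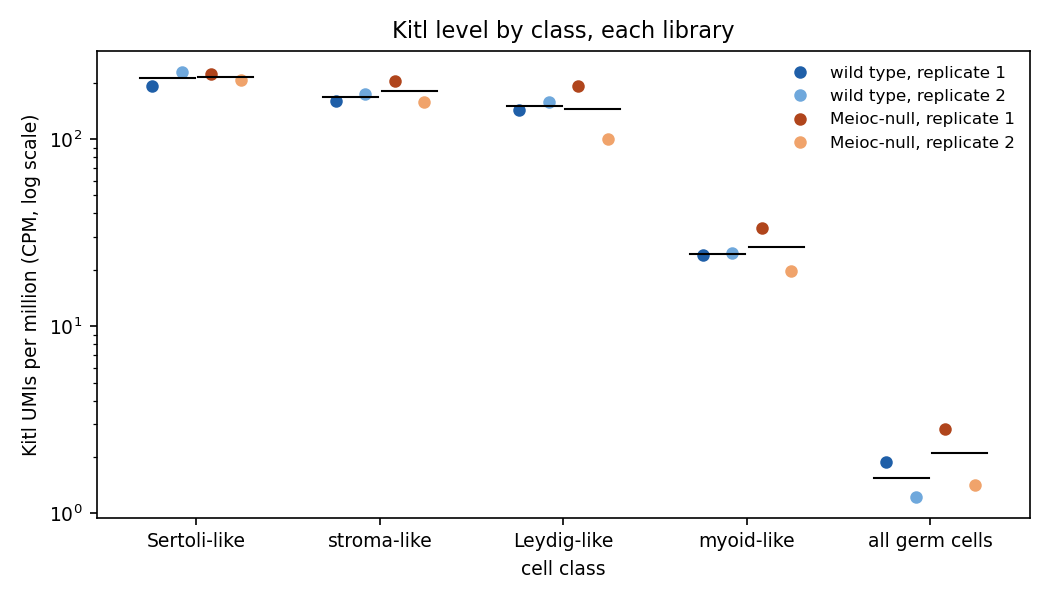
*Kitl* level in CPM (log axis) in 4 somatic classes and in all germ cells. Each point is 1 library and each bar the mean of 2 libraries of a genotype; Sertoli-like, stroma-like and Leydig-like cells lie between 99.8 and 228 CPM, myoid-like cells between 19.8 and 33.3 CPM and germ cells between 1.23 and 2.81 CPM.

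Among the kept cells, those called Sertoli-like held 59.1, 54.8, 46.4 and 46.7% of the *Kitl* UMIs, though they were 5.72, 3.88, 5.54 and 5.00% of the cells. The exact binomial interval of the first share ran from 56.9 to 61.4%. Stroma-like cells held 18.0, 20.8, 20.0 and 23.5%, myoid-like cells 7.52, 8.57, 13.4 and 11.5%, and Leydig-like cells 4.87, 7.48, 4.31 and 9.23%. Germ cells held 9.04, 6.54, 13.7 and 7.70%, while they made up 82.9 to 86.6% of all UMIs.

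These shares depended on the mitochondrial limit, because most of the ligand lay beyond it. Barcodes with over 1000 genes that failed the 10% limit held 68.8, 63.5, 71.8 and 73.0% of all *Kitl* UMIs of their library, in 17.0, 11.9, 17.4 and 14.8% of barcodes. Sertoli markers summed to 4738, 4688, 4177 and 4735 CPM in them and germ cell markers to 628, 700, 731 and 635 CPM. On average a Sertoli marker was found in 46.7, 46.9, 45.3 and 47.6% of these barcodes. A germ cell marker was found in 51.9, 50.5, 50.2 and 50.6%, so the barcodes were a mixture. For *Kit* the same barcodes held 14.9, 8.45, 16.7 and 10.6% of the UMIs, so the receptor was largely kept and the ligand largely lost.

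With a limit of 25%, chosen after this was seen, the Sertoli-like cells numbered 1203, 1046, 1382 and 1098, where the 10% limit left 323, 291, 363 and 326. They then held 88.7, 86.5, 88.4 and 87.5% of the *Kitl* UMIs of the kept cells. The added cells, with a mitochondrial share from 10 to 25%, had *Kitl* at 237, 273, 256 and 261 CPM and a *Kitl* UMI in 88.9 to 94.3% of cells, above the level of the Sertoli-like cells under the stricter limit in each library. Doublets were scored only among barcodes under the 10% limit, so the added cells were not screened for them. The plot of *Kitl* sources sets both limits side by side.

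**Figure D5:**
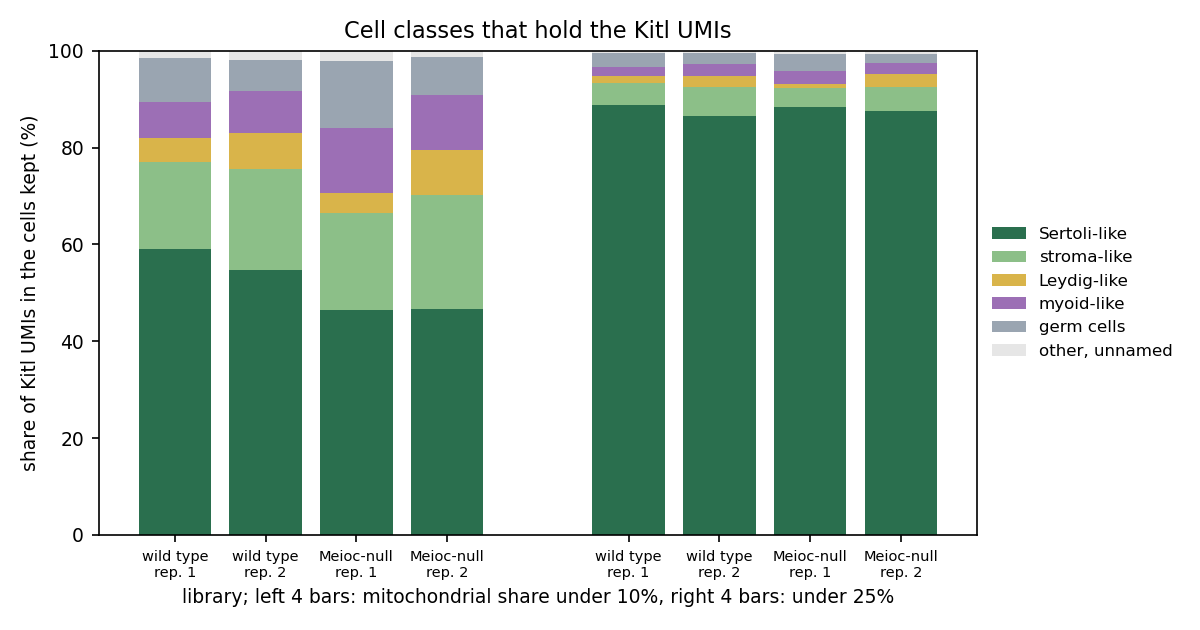
Share of the *Kitl* UMIs of the kept cells (percent) held by each cell class, with 1 stacked bar for each library, at a mitochondrial limit of 10% (left 4 bars) and 25% (right 4 bars). The Sertoli-like share is 46.4 to 59.1% at the stricter limit and 86.5 to 88.7% at the wider one.

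In the named somatic classes the *Kitl* level in CPM showed no difference between genotypes beyond the spread of the libraries. In Sertoli-like cells the wild-type mean was 210 ± 24.6 CPM and the null mean 214 ± 11.6 CPM (SD, n = 2). The log2 fold change was 0.02 ± 0.15, with an interval of 2 SE from -0.27 to 0.32 (edgeR adjusted p = 1.00), and 0.263% of genes were called there. With the 25% limit it was -0.01 (adjusted p = 1.00). Myoid-like cells gave -0.05 ± 0.20, with 0.0238% of genes called, and stroma-like cells -0.07 ± 0.19, with 0.0280% called (edgeR adjusted p = 1.00 for both). Leydig-like cells gave 0.16 ± 0.26 (adjusted p = 0.946). In the 7 germ clusters tested the *Kitl* estimates were not called either, and their intervals were wide, for example from -1.60 to 0.48 in cluster 8. The Sertoli-like share of *Kitl* UMIs was lower in both null libraries (46.4 and 46.7%) than in wild type (59.1 and 54.8%). At the 25% limit the shares overlapped (88.7, 86.5, 88.4 and 87.5%). In the deep Sertoli-like cluster, 97.6 and 96.2% of wild-type and 90.4 and 81.7% of null cells had a *Kitl* UMI. Thinned to 2000 UMIs per cell these values overlapped, at 31.5, 36.5, 38.3 and 28.0%. The part of depth was not tested.

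The genes around the receptor were followed in 4 lists of 74 genes in all: receptor-proximal genes and effectors, negative regulators, regulators of *Kit* transcription, and genes of KITL shedding and Sertoli control. In germ clusters 1 to 6 and in the Sertoli-like, myoid-like and stroma-like classes 0 list genes were called by edgeR, with list medians between -0.30 and 0.11 on the log2 scale. Each of these fits tested 59 to 72 list entries and called 0 to 1.07% of all genes, so the 0 is no mark of the listed genes. With the replicate number as a block, 2, 1 and 3 list genes were called in clusters 3, 5 and 6, beside 1.42, 4.17 and 6.34% of all genes in that fit. In Leydig-like cells, with the lower cell minimum, 2 of 30 receptor-proximal genes and effectors were called, both higher in wild type, beside 0.961% of all genes: the adaptor gene *Gab2* (1.40, edgeR adjusted p = 0.0300) and *Foxo3* (1.71, adjusted p = 0.0311). None of the 8, 2 and 5 genes tested from the other lists was called there.

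In cluster 7, 12 list genes were called, all lower in wild type, where 9.27% of all genes were called lower and 6.14% higher. They were 7 of 35 receptor-proximal genes and effectors, 2 of 11 negative regulators, 1 of 11 regulators of *Kit* and 2 of 9 genes of the shedding list, with list medians of -0.23, -0.24, -0.24 and -0.15 beside -0.00 over all genes. With the replicate block 29 list genes were called, of which 4 were higher in wild type, beside 33.4% of all genes, and 7 list genes were called by DESeq2 (9.43% of all genes) and 7 without the second wild-type replicate (9.80%). *Pik3cb*, a catalytic subunit of phosphoinositide 3-kinase, was at 8.81, 12.7, 29.1 and 25.7 CPM (log2 fold change -1.31 ± 0.19, edgeR adjusted p = 8.93e-04). *Ptpn11*, the phosphatase SHP2, was at 26.0, 20.5, 57.1 and 49.2 CPM (-1.15 ± 0.13, adjusted p = 1.39e-04). *Sos1*, the exchange factor that loads RAS, was at 13.9, 15.5, 27.9 and 28.1 CPM (-0.89 ± 0.15, adjusted p = 0.00230).

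In cluster 8, 25 list genes were called, against 15 with DESeq2, where 22.9% of all genes were called, and 16 without the second wild-type replicate, where 21.6% were. Receptor-proximal genes and effectors gave 3 higher and 11 lower of 33 tested, negative regulators 1 and 4 of 9, regulators of *Kit* 0 and 3 of 9, and the shedding list 0 and 3 of 8, against 15.4% of all genes called higher and 19.5% lower. The list medians were -0.21, -0.37, -0.40 and -0.29, and that of all genes was -0.04. Higher in wild type were *Pik3r1*, the regulatory subunit of phosphoinositide 3-kinase (1.07 ± 0.34), the RAS gene *Nras* (0.97 ± 0.14) and *Sh2b3*, an adaptor that restrains receptor signalling (0.84 ± 0.24). Lowest in wild type were *Adam10* (-1.86 ± 0.13), *Dmrtb1* (-1.56 ± 0.45) and *Sos1* (-1.48 ± 0.19), all with edgeR adjusted p-values of 0.0156 or less.

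*Adam10* encodes a membrane protease that sheds surface proteins. It was at 74.2, 76.4, 152 and 123 CPM in cluster 7, at 46.6, 39.3, 173 and 145 CPM in cluster 8, and at 20.1, 16.5, 103 and 79.9 CPM in cluster 9. In Sertoli-like cells, the class with the largest share of the *Kitl* UMIs, *Adam10* was at 120, 120, 127 and 111 CPM and was not called.

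Cluster 9 had 32 list genes called, 12 higher and 20 lower in wild type, where 29.0% of all genes were called higher and 30.7% lower. At least 54 list genes were tested there and 59.7% of all genes were called, so the count is no mark of the listed genes. Highest in wild type were *Sh2b3* (2.73 ± 0.17; 65.2, 55.7, 9.23 and 9.83 CPM), the kinase gene *Src* (2.57 ± 0.45) and *Akt1* (1.20 ± 0.23). Lowest were the docking protein gene *Dok1* (-2.77 ± 0.64, at most 3.21 CPM in any library), *Foxo3*, a transcription factor that AKT restrains (-2.47 ± 0.25; 5.10, 3.81, 31.8 and 20.7 CPM), and *Spred2*, an inhibitor of RAS to ERK signalling (-2.42 ± 0.51). *Cbl*, the ubiquitin ligase that marks active KIT for breakdown, was lower in wild type in clusters 7 and 8 (-0.43 ± 0.10 and -0.63 ± 0.14) and higher in cluster 9 (0.81 ± 0.11). Besides *Cbl*, 8 list genes were called in all 3 clusters, all of them lower in wild type each time, among them *Adam10*, *Foxo3*, *Ptpn11*, *Sos1*, *Foxo1*, *Creb1* and *Grb2*. These 9 were 16.7% of the 54 list genes tested in all 3 clusters, and the 8 that were lower each time were 14.8%. Of all 10370 genes tested in all 3, 8.19% were called each time and 5.32% were lower each time.

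Of the regulators, *Sohlh1* and *Sohlh2* encode helix-loop-helix factors of spermatogonia that are known to act on *Kit*. *Sohlh1* was already high in cluster 1, at 232, 222, 223 and 239 CPM, and lower in each later cluster in the wild-type mean, down to 4.78, 3.95, 13.8 and 6.04 CPM in cluster 8. It was called lower in wild type in cluster 7 (-0.37 ± 0.10, edgeR adjusted p = 0.0310) and in cluster 8 (-1.13 ± 0.36, adjusted p = 0.0182). *Sohlh2* was at 35.3, 30.9, 33.3 and 29.3 CPM in cluster 1 and at 79.5, 65.2, 78.8 and 65.0 CPM in cluster 2, where *Kit* was also highest, but it was at 67.3, 58.6, 76.9 and 60.7 CPM in cluster 9, where *Kit* was near background. In cluster 8 it was at 21.7, 20.0, 42.0 and 39.2 CPM (-0.93 ± 0.16, adjusted p = 8.55e-05). *Dmrt1*, which encodes a factor that keeps spermatogonia from entering meiosis, was at 112, 95.7, 107 and 94.1 CPM in cluster 7 and at 18.2, 8.12, 31.8 and 12.3 CPM in cluster 8, a decline at the same place as that of *Kit*.

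Among the genes whose course over the 10 wild-type germ cell clusters was most like that of *Kit* were *Suclg2* (r = 0.992), *Nlgn2* (0.988), *Prkag2* (0.980) and *Plcl2* (0.976), by Pearson's r of log2(CPM + 10) among 10313 genes. Over the 9 clusters with null cells the same genes had r of 0.960, 0.962, 0.963 and 0.973 in *Meioc*-null. For *Kitl*, over 14 germ cell and somatic clusters and 11606 genes, they included *Sorbs3* (0.996), *Dhrs7* (0.993), *Gsta2* (0.990) and *Hfe* (0.982), with r of 0.994, 0.991, 0.979 and 0.989 over 13 in *Meioc*-null. The points are clusters of the same libraries, so these values describe likeness and carry no test.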

How the data were processed

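Testes of 4 pups were dissociated to single cells and sequenced with 3′ tagging, with separate pups as replicates. The authors aligned the reads to mm10 (GRCm38) with Cell Ranger 4.0.0, named in the submitters' processing notes beside Seurat, and deposited raw UMI counts per gene and barcode, which were used as deposited. Barcodes with over 1000 detected genes and under 10% mitochondrial UMIs were kept. Doublets were scored with Scrublet, and the top-scoring 0.8% per 1000 barcodes were removed (690, 989, 996 and 692 cells), because the caller's own threshold differed widely between libraries (1.94 to 4.73%).

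Wild-type cells were clustered (scanpy 1.11.5, leidenalg 0.10.2, 2000 variable genes, 30 principal components) without *Kit*, *Kitl* and the listed genes, and null cells were placed by their 30 nearest wild-type neighbours. A cluster was named where at least 3 markers were detected and the second-best cell type scored at most 0.75 times the best. This scoring was set after the clusters were seen, and the markers were not. Names are rebuilt and may differ from those of the study.

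UMI sums of each cluster in each library were tested with edgeR 4.0.16 (TMM, filterByExpr, quasi-likelihood, R 4.3.3) where every library had 50 cells. DESeq2 1.42.0, other filters, scalings, cell limits and leaving out each library were alternatives. The fits were tested on simulated data. The labels say that a replicate number marks a batch and a littermate pair, so the numbers pair the samples; differences between the replicates of each genotype correlated with r of 0.35 to 0.56 over genes in germ cell clusters and 0.10 to 0.21 in somatic classes. The main fit carried no block for the pair.

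The members, gene lists and tests were chosen with earlier results of these data known. Named were *Kit* and *Kitl* in every tested cluster, the 3 list genes called with the largest change in each direction per cluster, list genes called in 3 or more clusters, the 5 genes most like each member, and *Meioc*; other genes are named as leading genes, markers or *Kit* regulators. Some genes that the rule selects are not reported here. Depth limits the *Kit* values of germ cell clusters 8 to 10, which rest on 13 to 108 UMIs per library.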

Additional observations from a re-analysis of the deposited data

Results flagged for a closer look

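The step of *Kit* from germ cell cluster 6 to cluster 7 differed between the genotypes by an interaction of 0.29 on the log2 scale (edgeR adjusted p = 0.00403), with the wild-type libraries going up by 0.21 and 0.31 and the null libraries at -0.04 and 0.01. The null libraries were nevertheless at 1.89 and 1.69 times in bin 12 over bin 10 of the finer order, and *Stra8* in cluster 6 was at 381 and 389 CPM in wild type and at 694 and 569 CPM in the null libraries, whose part in the step was not tested. The step from cluster 7 to cluster 8 differed by -0.82 (edgeR adjusted p = 0.0150), with all 4 libraries going down. In cluster 8 the *Kit* UMIs numbered 33, 66, 108 and 72.

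Barcodes left out of the comparisons carried most of the ligand. Those that passed the gene minimum and failed the mitochondrial limit held 68.8 and 63.5% of the *Kitl* UMIs of the wild-type libraries and 71.8 and 73.0% of those of the *Meioc*-null libraries, in 2322, 1732, 2876 and 1771 barcodes.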

How the results depend on the processing

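Of the recomputed values that answer a comparison, 347 kept their direction and their side of the threshold or stayed within the spread, 27 moved, 23 turned in direction, 7 fell short of the threshold and 2 passed it. These counts include the exact permutation test of each step, which cannot reach the threshold with 2 libraries per genotype. Its values for the called steps 6 to 7 and 7 to 8 are among those that fell short, an outcome fixed in advance. Where the cause of a change is not given by the setting itself, the cause was not tested. With doublets kept, *Kit* in cluster 9 gave 1.12, the steps 4 to 5, 7 to 8 and 8 to 9 gave 0.01, -0.48 and 1.37 (adjusted p = 0.00159 for the last), and the wild-type level of cluster 2 over 1 was 6.15 and of 7 over 8 was 14.8. With the 25% mitochondrial limit, chosen after seeing the data, *Kit* in cluster 9 gave 0.15, *Kitl* in Sertoli-like cells -0.01 and the step 7 to 8 -0.73. With a 5% limit *Kitl* in Sertoli-like cells gave -0.10. The mean Sertoli-like share of *Kitl* UMIs was 13.4% at the 5% limit, 51.8% at 10% and 87.8% at 25%. Sertoli-like cells kept at the 10% limit held 10.8% of the *Kitl* UMIs of all deposited barcodes. That value leaves out the Sertoli-like cells beyond the limit, so it is not the share of the class over all barcodes. The exact permutation test of the library values, on the log2(CPM + 10) scale, gave differences of 0.27 and -0.41 for the steps 6 to 7 and 7 to 8. As a mean over cells of UMIs per 10000, cluster 2 was at 8.34 times cluster 1.

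Thinned to 1000 UMIs, a *Kit* UMI was found in 21.8% of cluster 2 and 0.385% of Sertoli-like cells and a *Kitl* UMI in 16.0% of Sertoli-like cells; without thinning these were 98.1, 5.60 and 50.5%, and 3.21% of germ cells had *Kitl*. With 10 bins the second *Kit* maximum was 1.52 times the trough. The list genes called numbered 2, 1, 3 and 29 in clusters 3, 5, 6 and 7 with the replicate block, 7 and 15 in clusters 7 and 8 with DESeq2 (9.43 and 22.9% of all genes), and 19 in cluster 7 and 2 in stroma-like cells with no filter (12.0 and 0.574%). The replicate block changed no call of *Kit* or *Kitl*; in cluster 8 it gave -0.53 for *Kit* (adjusted p = 0.0564). With a pseudocount of 1, 3 of the 5 genes most like *Kit* remained.

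Leaving out 1 library at a time moved *Kit* between -0.32 and -0.12 in cluster 1, -0.09 and 0.09 in 2, -0.21 and 0.10 in 3, -0.25 and 0.01 in 4, -0.35 and 0.03 in 5, -0.28 and 0.02 in 6, -0.04 and 0.36 in 7, -0.88 and -0.23 in 8, and -0.32 and 0.02 in 9. The lone library left in a genotype is then assumed to vary like the others. *Kitl* moved between -0.10 and 0.15 in Sertoli-like, -0.34 and 0.27 in myoid-like, -0.22 and 0.09 in stroma-like and -0.28 and 0.53 in Leydig-like cells. The steps moved between 0.08 and 0.37 (1 to 2), -0.13 and 0.03 (2 to 3), -0.16 and 0.05 (3 to 4), -0.11 and 0.04 (4 to 5), -0.04 and 0.06 (5 to 6), 0.24 and 0.33 (6 to 7), -1.10 and -0.45 (7 to 8), and 0.03 and 0.67 (8 to 9). List genes called ran from 7 to 10 in cluster 7, 16 to 25 in cluster 8, 28 to 32 in cluster 9, 0 to 1 in myoid-like and 0 to 3 in stroma-like cells. The share of all genes called also moved between these fits, so the ranges are no mark of the listed genes. The 5% limit left under 50 cells in most germ cell clusters, so it was not run there.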
